A study of Mus musculus with 12 samples.

Results

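The long 5′ fragments of the glutamate tRNA with anticodon CTC (tRNA-Glu-CTC) are described here, those of 33 to 36 nt that align from base 1 of the tRNA. They were chosen from measured levels. The most abundant sequence of the table, F, was taken as the start of the tRNA, and the most abundant sequence of at least 34 nt that begins with F was taken as the reference, R. A sequence belonged to the family if it aligned inside R with at most 2 edits (substituted, inserted or missing bases). Family members that began at base 1 of R and had at least 33 nt were kept. This gave 101 of the 2971 sequences in the table and 101 of the 822 in the family. The other family sequences comprised 275 of 30 to 32 nt, 292 of at most 29 nt, and 154 that began after base 1. Outside the family the table held 332 sequences of at least 33 nt.

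Small RNA was sequenced from mouse sperm whose histones had been replaced, purified as sperm heads from the caudal epididymis and vas deferens. The 4 groups had 3 libraries each: wild-type mice on control diet (WT_CD), wild-type mice on low protein diet (WT_LPD), mice carrying 1 intact copy of Atf7 on control diet (ATF7+/-_CD), and the same genotype on low protein diet (ATF7+/-_LPD). All were males fed their diet from week 3 to week 12 of age, so control diet was the shared baseline of both genotypes. The labels give neither the number of animals behind a library nor whether replicates came from separate animals, so p-values measure only the spread between these libraries, which may be technical. ATF7 is a transcription factor of the ATF/CREB family. The table lists tRNA fragments, and marker genes of sperm or other cells were not analysed here.

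A tRNA folds into a cloverleaf whose anticodon sits in a loop near the middle of the molecule. Nucleases such as angiogenin can cut in that loop and release a 5′ fragment. Mature sperm are rich in such 5′ fragments, those of glutamate and glycine tRNAs among them, and part of this cargo reaches sperm during passage through the epididymis. In tRNA-Glu-CTC bases 34 to 36 are the anticodon, so the unedited sequences described here, as read, end just before or within it. RefSeq annotates 12 nuclear genes of this tRNA in GRCm38.p6, each of 72 bases, on 8 chromosomes. Of these, 9 lie between other genes, 3 lie in introns and 0 overlap an exon of another gene. A fragment was not assigned to a single gene.

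Positions are counted from 1 at the 5′ end. The unedited members are the 4 sequences of 33, 34, 35 and 36 nt that extend F without a difference, and R is the one of 34 nt. Their 33 nt form stops at the base before the anticodon, and the 36 nt form carries the whole anticodon. The libraries were read to 36 bases, so a longer fragment could not be told from one of 36 nt. Edited members are named by their length and by each difference, written as the unedited base, its position and the base found. Another 3 members of 33 nt align at base 1 of R with 2 edits but are shifted copies. The shortened member is the 34 nt T5C,G6T member without its first base. The 2 extended members, called a and b, have 2 more bases before the first base of the tRNA.

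Levels are reads scaled by the authors to a common library total (RPM). The totals ran from 2198744 to 6870039 reads, of which the table held 97.5 to 98.2%, and 35068 to 192817 reads per library belonged to the 101 members. A level of 0.437 to 1.36 RPM corresponds to 3 counts, depending on the library, and no member was at 0 in any library. All 101 members had a mean of at least 1 RPM over the 12 libraries and 61 had at least 10 RPM. Total reads differed between the low protein groups, from 2278880 to 2874170 in WT_LPD and from 4828916 to 6870039 in ATF7+/-_LPD, so depth and genotype cannot be told apart there. Control-diet replicates stood apart in how much of the family began after base 1. That share of family reads was 18.0, 11.6 and 3.16% in WT_CD replicates 1, 2 and 3 and 9.70, 7.16 and 4.39% in the ATF7+/-_CD replicates, against 2.14 to 3.25% in WT_LPD and 1.85 to 4.80% in ATF7+/-_LPD. Diet results are therefore also given without replicates 1 and 2 of both control-diet groups, a choice made after seeing these values. That leaves 1 library in each control group, so those results have no replicate check on the control side.

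The members were dominated by the unedited 33 nt sequence. Its mean level over the 12 libraries was 15112 RPM, which placed it 11th in the table (rank 11). The unedited 34, 35 and 36 nt members had 2799, 1580 and 721 RPM and ranks 52, 76 and 114. Just outside the length limit, the unedited 32 nt sequence had 4866 RPM, 0.322 of the 33 nt level, and the 31 nt sequence had 43996 RPM, 2.91 times that level. Ending at base 33 was thus more common than ending at base 32, while ends at base 31 were more common than both. Among unedited sequences of 27 to 36 nt that began at base 1, 47.4% of the summed level ended at base 29, 14.1% at base 31, 1.55% at base 32 and 4.78% at base 33. The shares were 0.878, 0.496 and 0.227% at bases 34, 35 and 36. These values chose or bounded the members and are given as a description.

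All 101 members together had a mean of 27073 RPM. Those of 33 nt numbered 68 and held 75.2% of the level, those of 34 nt 19 and 14.6%, those of 35 nt 8 and 7.17%, and those of 36 nt 6 and 3.03%. The level was concentrated in few sequences: 5 members reached 1000 RPM, 14 reached 100 RPM, and 40 were under 10 RPM. The median member had 13.1 RPM, and the range ran from 3.28 to 15112 RPM.

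By kind of difference, the 4 unedited members held 74.7% of the level and 11 members that differ only in their last base held 15.9%. Another 68 members with 1 substitution before the last base held 4.29%, 15 with 2 substitutions held 4.79%, and the 3 shifted members held 0.357%. Over all members except the shifted ones, base 33 was T in 87.8% of the level, C in 6.81%, A in 4.31% and G in 1.04%. Base 34, the first of the anticodon, was C in 88.6% and T in 7.94% of the level of the members that reach it. Base 35 was T in 86.6% and C in 6.58%. The whole anticodon could be read in the 6 members of 36 nt, where CTC made up 90.7% of the level, held by 2 sequences, and CTT made up 5.75%. CTT would pair with a codon for lysine, and whether its last base was present in the tRNA was not tested.

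The most abundant edited members differed in the last base. The 33 nt T33C member had 1800 RPM, 11.9% of the unedited 33 nt level and 37.0% of the unedited 32 nt level, from which it differs by 1 added base. The 33 nt T33A member had 1163 RPM, or 7.70% of the unedited 33 nt level. At 34 nt, C34T had 521 RPM (18.6% of the unedited 34 nt level) and C34A had 185 RPM (6.62%). At 35 nt, T35C had 182 RPM (11.5% of the unedited level), T35A 112 RPM (7.07%) and T35G 27.5 RPM. At 36 nt, C36T had 47.2 RPM, 6.54% of the unedited level. Each of these last-base forms was a larger share of its unedited sequence than any of the internal substitutions of the 33 nt sequence described next.

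Substitutions before the last base were spread along the whole 33 nt sequence. Members with 1 such substitution numbered 54 at this length and touched each of the first 32 positions, and each had 0.038 to 0.411% of the unedited level (median 0.0985%). Their sum was 7.01% of the unedited level and lay between 6.67 and 7.19% in the 12 libraries. Transitions made up 32 of the 54 and 5.06%, and transversions 22 and 1.95%. T-to-C was the most abundant class with 2.26% over 10 sequences, followed by G-to-A with 1.39% over 12 sequences. Positions 1, 6 and 5 had the highest sums, with 0.715, 0.549 and 0.492%. The sum over the 54 members varied little between libraries. It was 6.81, 6.83 and 6.96% in WT_CD and 7.02, 7.11 and 7.02% in WT_LPD, with no overlap. The groups overlapped for diet in ATF7+/- and for genotype on either diet. Single members varied more, such as C32G with 0.0106 to 0.148% and C30T with 0.0586 to 0.155% in the 12 libraries. Members share nearly all of their bases, so a count of members is not a count of independent measurements.

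A few members with 2 substitutions were more abundant than any single internal substitution. The 33 nt T5C,G6T member had 831 RPM and 5.50% of the unedited 33 nt level, with 5.17 to 5.81% in the 12 libraries, and its 34 nt counterpart had 158 RPM. The shortened member had 87.6 RPM, 55.5% of that 34 nt counterpart. The 34 nt C30A,C32A member had 192 RPM, and its first 29 bases are F. Against R its level ranged from 3.56 to 12.0%, and against F from 0.0890 to 0.162% in the 12 libraries. Its last 5 bases are also the first bases of a common 3′ sequencing adapter, whose part in this member was not tested. At 36 nt, C32A,T33G had 22.8 RPM and C34A,T35G had 14.3 RPM.

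The first comparison asked how low protein diet and control diet differed in wild-type sperm. The long Glu-CTC 5′ fragments were higher in WT_LPD in most members, and 5 of the 101 members passed the test, all of them higher. The unedited 33 nt member had 9849, 12402 and 14645 RPM in WT_CD replicates 1 to 3 (12299 ± 2400, SD, n = 3) and 25218, 19714 and 19201 RPM in WT_LPD (21378 ± 3336). Every low protein library lay above every control library. The unedited 34 nt member, R, had 1151, 1886 and 2899 RPM in WT_CD (1979 ± 878, SD, n = 3) and 5489, 4142 and 3886 RPM in WT_LPD (4506 ± 861), again with no overlap. The unedited 35 nt member had 577, 1149 and 1726 RPM in WT_CD (1151 ± 575) and 3303, 2104 and 2117 RPM in WT_LPD (2508 ± 688), also with no overlap. This is the form that holds the first 2 bases of the anticodon. The unedited 36 nt member had 173, 456 and 1114 RPM in WT_CD (581 ± 483) and 1477, 1181 and 786 RPM in WT_LPD (1148 ± 347), and here the groups overlapped. Levels are relative to all reads of a library, so more of these fragments and less of the other RNAs cannot be told apart, nor can fewer cells carrying them and less RNA per cell.

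With edgeR's quasi-likelihood test over all 2971 sequences and Benjamini-Hochberg adjustment, none of the 4 unedited members passed an adjusted p of 0.05 in wild type. The log2 difference of low protein minus control diet was 0.80 (SE 0.24, adjusted p = 0.0738) for 33 nt and 1.19 (SE 0.32, adjusted p = 0.0628) for 34 nt. It was 1.12 (SE 0.37, adjusted p = 0.0936) for 35 nt and 0.98 (SE 0.52, adjusted p = 0.298) for 36 nt. The test called 2.52% of the whole table, 0.168% higher and 2.36% lower, and the 5 sequences called higher in the table were all members. These were 4 substituted copies of the 33 nt sequence and the shortened sequence, each with an adjusted p of 0.0486.

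The called members repeated the unedited pattern at lower level. The shortened member had 34.4, 58.8 and 80.9 RPM in WT_CD and 170.3, 142 and 129 RPM in WT_LPD, a log2 difference of 1.35 (SE 0.32). The 33 nt T8C member rose from 19.3 ± 2.24 to 40.3 ± 9.94 RPM (SD, n = 3), a log2 difference of 1.06 (SE 0.25). The C12T member rose from 6.41 ± 1.15 to 14.0 ± 0.812 RPM, or 1.13 (SE 0.26). T8C and C12T are changed in the first part of the fragment and keep its 33 nt length. The G29A member rose from 8.48 ± 1.22 to 17.7 ± 1.91 RPM, or 1.05 (SE 0.26), and G6T from 12.3 ± 1.09 to 23.8 ± 2.18 RPM, or 0.95 (SE 0.23). In all 5 the groups did not overlap. The unedited 33 nt member had a difference of 0.80, and the difference between its value and those of its substituted copies was not tested.

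Over the list, 96 of 101 members had a positive difference in wild type against 43.3% of all sequences, and the median was 0.84 against -0.10 for the table. An unadjusted p under 0.05 was found in 66 members and in 21.8% of the table. The medians by length were 0.81 for 33 nt, 1.04 for 34 nt, 0.94 for 35 nt and 1.02 for 36 nt. All 68 members with 1 internal substitution, all 11 last-base members and all 4 unedited ones were positive. In 71 members every low protein library lay above every control library, where 8.45% of the table did so, and in 3 members (both extended members and 33 nt C32G,T33C) every one lay below, against 11% of the table. Other groups of sequences had other medians. The median was -0.08 for family sequences of 30 to 32 nt, 0.20 for those of at most 29 nt, -1.94 for those that begin after base 1 and 0.04 for sequences of at least 33 nt outside the family. The unedited 32 nt sequence, just outside the length limit, was also higher with no overlap (4559 ± 137 in WT_CD and 5687 ± 583 RPM in WT_LPD, SD, n = 3). So was the unedited 30 nt sequence, by a small margin (44087 ± 2426 and 47155 ± 1092 RPM). The unedited 31 nt sequence overlapped (51147 ± 6886 and 44853 ± 3201 RPM).

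Summed over the 101 members, the level was 16448, 21789 and 26791 RPM in WT_CD (21676 ± 5172, SD, n = 3) and 46851, 35796 and 34486 RPM in WT_LPD (39044 ± 6792), with no overlap. As a share of the family reads that begin at base 1, the members held 4.38, 5.84 and 6.01% in WT_CD and 10.4, 7.87 and 7.79% in WT_LPD. In WT_CD replicate 3 the share of family reads beginning after base 1 was 3.16%, within the range of WT_LPD, and the member total was 26791 RPM. The part of that share in the diet difference was not tested. Sequences of at least 33 nt outside the family summed to 40395 ± 3342 and 41813 ± 2579 RPM (SD, n = 3), and these groups overlapped.

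The call of 5 members in wild type depended on the libraries and the tool. It was 0 with limma, 0 when only sequences of at least 10 RPM were tested, 1 of 80 called sequences with replicate number as a block and 40 of 327 with DESeq2. It was 45 of 577 without WT_CD replicate 3 (1 of them, T19C,C34T, lower), 18 of 134 without ATF7+/-_CD replicate 3 and 0 of 0 without any other single library. The unedited 33, 34 and 35 nt members passed with DESeq2, all 4 passed without WT_CD replicate 3, and the 33 nt one passed without ATF7+/-_CD replicate 3. Without replicates 1 and 2 of both control-diet groups the count was 0, the median of the members was 0.55, and the unedited 33, 34, 35 and 36 nt members had log2 differences of 0.55, 0.64, 0.54 and 0.04.

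The second comparison asked the same of diet in ATF7+/- sperm. The unedited members overlapped between the diets there, and 0 of 101 members passed the test, where 0.101% of the table did (0.0673% higher and 0.0337% lower). The unedited 33 nt member had 12201, 15425 and 8542 RPM in ATF7+/-_CD (12056 ± 3444, SD, n = 3) and 14111, 15208 and 14834 RPM in ATF7+/-_LPD (14718 ± 558). Its groups overlapped, because control replicate 2 lay above all low protein libraries. The 34 nt member had 1805, 2890 and 1771 RPM in ATF7+/-_CD (2155 ± 637) and 2144, 2936 and 2594 RPM in ATF7+/-_LPD (2558 ± 397). The 35 nt member had 1036, 1685 and 937 RPM in ATF7+/-_CD (1219 ± 406) and 1191, 1656 and 1484 RPM in ATF7+/-_LPD (1444 ± 235). The 36 nt member had 297, 398 and 592 RPM in ATF7+/-_CD (429 ± 150) and 527, 903 and 755 RPM in ATF7+/-_LPD (728 ± 189). All 3 of these also overlapped between the diets.

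The log2 differences in ATF7+/- were 0.29 (SE 0.24, adjusted p = 0.507) for 33 nt, 0.25 (SE 0.32, adjusted p = 0.684) for 34 nt, 0.24 (SE 0.36, adjusted p = 0.722) for 35 nt and 0.76 (SE 0.52, adjusted p = 0.420) for 36 nt. With each library left out in turn they ranged from 0.09 to 0.50, 0.12 to 0.52, 0.09 to 0.55 and 0.56 to 1.07. The lowest values for 33, 34 and 35 nt came without ATF7+/-_CD replicate 3 and the highest without ATF7+/-_CD replicate 2. DESeq2 called 0 members of 45 sequences, and limma 0 of 0. By edgeR 5 members had an unadjusted p under 0.05, where 16.9% of the table did. The smallest adjusted p-values were 0.226 for 33 nt T25C,T33C (log2 difference 1.49, SE 0.47), 0.256 for 36 nt C36T (1.45, SE 0.53) and 0.275 for 33 nt T33A (0.52, SE 0.21). The 36 nt C36T member had 16.1, 21.5 and 30.9 RPM in ATF7+/-_CD and 38.1, 83.1 and 64.3 RPM in ATF7+/-_LPD, with no overlap. It passed when the 6 ATF7+/- libraries were fitted alone with a replicate block (1.42, adjusted p = 0.00426), 1 of 260 sequences called in that fit.

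The median over the members was 0.30 in ATF7+/- against 0.03 for the table, and 86 members were positive, where 52.6% of the table was. In 16 members the low protein libraries all lay above the control libraries, against 13% of the table, and in 0 they all lay below, against 8.25%. The share of such members was thus close to that of the table. The member total was 20483, 26990 and 15949 RPM in ATF7+/-_CD (21141 ± 5550, SD, n = 3) and 24354, 28066 and 26872 RPM in ATF7+/-_LPD (26431 ± 1895), with overlap. As a share of family reads from base 1 the groups did not overlap, with 5.03, 5.93 and 4.53% in ATF7+/-_CD and 5.99, 7.59 and 6.99% in ATF7+/-_LPD. Without replicates 1 and 2 of both control-diet groups, the median of the members was 0.84. The 33 nt C32G, C32T and T33G members, picked for their values in that fit, had log2 differences of 3.39, 2.67 and 1.19. Each of these was then set against 1 control library, ATF7+/-_CD replicate 3, where C32G had 0.910 RPM. The spread of that lone library was assumed to be that of the low protein groups, so these values have no replicate check on the control side.

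Averaged over both genotypes, 17 members were higher on low protein diet and 0 were lower, by edgeR with Benjamini-Hochberg adjustment. The table had 11.9% of its sequences called, 1.55% higher and 10.3% lower, so 17 of the 46 sequences called higher were members. They comprised 12 of 33 nt, 4 of 34 nt, 0 of 35 nt and 1 of 36 nt. By kind they were 10 of 68 with 1 internal substitution, 5 of 11 with another last base, 1 of 15 with 2 substitutions, 1 of 3 shifted and 0 of 4 unedited. The unedited members had 0.54 (SE 0.17, adjusted p = 0.0527), 0.72 (SE 0.23, adjusted p = 0.0562), 0.68 (SE 0.26, adjusted p = 0.0992) and 0.87 (SE 0.36, adjusted p = 0.136) from 33 to 36 nt.

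The largest difference among the called members was that of 36 nt C36T, the form that spells CTT in the anticodon, at 1.26 (SE 0.37, adjusted p = 0.0444). It had 12.2, 24.1 and 64.9 RPM in WT_CD and 100.05, 67.1 and 43.4 RPM in WT_LPD, with overlap in that genotype. Next were 34 nt T1A, changed at the first base, with 0.95 (SE 0.28), and 34 nt T33C with 0.92 (SE 0.27). The shortened member had 0.82 (SE 0.23), 34 nt C34T 0.80 (SE 0.20) and 34 nt C34A 0.77 (SE 0.20). The C34T member, changed at the first anticodon base, had 386 ± 96.8 RPM in WT_CD, 792 ± 175 in WT_LPD, 366 ± 87.9 in ATF7+/-_CD and 541 ± 101 in ATF7+/-_LPD (SD, n = 3). The 33 nt members T8C, G29A, T25C and T13C had 0.77, 0.75, 0.72 and 0.70. The other 7 ranged from 0.52 for T33C to 0.70 for G17A, with T33A at 0.56, T5C,G6T at 0.57, A24G at 0.60, G6T at 0.62 and C12T at 0.68 between them.

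Over the list the median was 0.57 against -0.01 for the table, with 94 of 101 members positive and 73 at an unadjusted p under 0.05, where 48.9% of the table was positive and 27.03% at such a p. The count of 17 was 40 of 530 called sequences with DESeq2, of which 39 were higher and 1 lower (extended member b), 0 of 0 with limma and 11 of 182 when only sequences of at least 10 RPM were tested. It was 52 of 714 without WT_CD replicate 3 (2 of them lower) and 28 of 798 without ATF7+/-_CD replicate 3 (3 of them lower). Without WT_CD replicate 2 it was 6 of 223, and without WT_LPD replicate 3 it was 6 of 181. It was 17 of 160 without ATF7+/-_CD replicate 2 and 14 of 391 without ATF7+/-_LPD replicate 1. No member passed without WT_CD replicate 1, where 102 sequences were called, or without ATF7+/-_CD replicate 1, where 56 were. Without WT_LPD replicate 1 or 2, or ATF7+/-_LPD replicate 2 or 3, the count was 0 of 0. Without replicates 1 and 2 of both control-diet groups, the unedited 33, 34, 35 and 36 nt members had 0.67, 0.58, 0.58 and 0.17. Each control group was then 1 library, so these values have no replicate check on the control side. Among fits that kept at least 2 libraries in each group, the unedited 33 nt member passed with TMM factors and with DESeq2. It also passed in 3 of the 12 fits that left out 1 library. The 34 nt one passed with DESeq2, and all 4 passed without WT_CD replicate 3.

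The third comparison set ATF7+/- against wild type on control diet, using the control libraries of the first 2 comparisons. The long fragments were close in level in both genotypes, and 0 of 101 members passed, as did 0% of the table. The log2 differences of the unedited 33, 34, 35 and 36 nt members were -0.03, 0.12, 0.08 and -0.44, with adjusted p-values of 0.997, 0.986, 0.986 and 0.969. Each of the 4 changed sign when 1 of the control libraries was left out, with ranges of -0.25 to 0.17, -0.15 to 0.51, -0.24 to 0.50 and -0.87 to 0.45. The members' median was 0.01 against -0.05 for the table. In 0 members ATF7+/- lay wholly above wild type, against 1.21% of the table, and in 2 (33 nt T1C,T33C and T25C,T33C) it lay wholly below, against 2.73%.

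On control diet DESeq2 and limma called 0 members too, and by edgeR 3 had an unadjusted p under 0.05, where 4.21% of the table did. They were 33 nt C32G,T33C (1.81, SE 0.71), 33 nt C32T,T33G (1.72, SE 0.70) and 33 nt C32G (1.41, SE 0.58), each with an adjusted p of 0.965. All 3 differ from the unedited sequence in the last 2 bases before the anticodon. The C32G member had 4.84, 4.23 and 4.31 RPM in WT_CD and 18.1, 15.1 and 0.910 RPM in ATF7+/-_CD. Replicates 1 and 2 of ATF7+/-_CD were thus above all WT_CD libraries and replicate 3 below them. Without ATF7+/-_CD replicate 3 the C32G member passed, the only sequence called in that fit.

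The fourth comparison set ATF7+/- against wild type on low protein diet. The long fragments were lower in ATF7+/-_LPD in most members, but 0 of 101 passed the test, where 0.202% of the table did (0.135% higher and 0.0673% lower). The unedited 33, 34 and 35 nt members lay below WT_LPD in every ATF7+/-_LPD library, and the 36 nt member overlapped. Their log2 differences were -0.54 (SE 0.24, adjusted p = 0.268), -0.82 (SE 0.32, adjusted p = 0.223), -0.80 (SE 0.37, adjusted p = 0.290) and -0.66 (SE 0.51, adjusted p = 0.542). The median over the members was -0.55 against 0.11 for the table, and 91 of 101 were negative, where 58.1% of the table was positive. Other family sequences from base 1 had negative medians too, -0.25 for 30 to 32 nt (228 of 275 negative) and -0.13 for at most 29 nt (210 of 292 negative). The sum over 30 to 32 nt was 125411 to 134081 RPM in WT_LPD and 106294 to 112704 RPM in ATF7+/-_LPD, also with no overlap. In 62 members the ATF7+/- libraries lay wholly below the wild-type ones, against 14.2% of the table, and in 2 (33 nt C32G and C32G,T33C) wholly above, against 21.3%. The member total did not overlap, with 34486 to 46851 RPM in WT_LPD and 24354 to 28066 RPM in ATF7+/-_LPD.

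By edgeR 26 members and 17.0% of the table had an unadjusted p under 0.05 on low protein diet. DESeq2 called 1 member (33 nt C30A) of 74 sequences, and limma 0 of 6. The smallest adjusted p-values were 0.162 for 33 nt C30A (-0.74, SE 0.25), 0.169 for 33 nt T1G (-0.96, SE 0.32) and 0.171 for 34 nt G6A (-0.98, SE 0.34). C30A, changed at the base after the 29 bases of F, had 68.5, 53.2 and 54.3 RPM in WT_LPD and 33.8, 33.8 and 37.5 RPM in ATF7+/-_LPD. When the 6 low protein libraries were fitted alone, 21 members passed, 19 lower and 2 higher in ATF7+/- (C32G and C32G,T33C), among 372 sequences called in the table. The unedited 33, 34 and 35 nt members were among the 19. With a replicate block in that fit 0 members passed, of 97 sequences called. Sequencing depth differed between these groups without overlap, as given above.

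Averaged over both diets, 0 members differed between the genotypes, where 0.101% of the table did (0.0673% higher and 0.0337% lower). The median of the members was -0.26 against 0.01, and 5 members had an unadjusted p under 0.05, where 11.3% of the table did. DESeq2 called 0 members of 44 sequences, and limma 0 of 3. The unedited members had -0.28, -0.35, -0.36 and -0.55 from 33 to 36 nt. The members with the smallest p-values were again 33 nt C32G,T33C (1.83, SE 0.54, adjusted p = 0.247), C32G (1.15, SE 0.41, adjusted p = 0.326) and C32T,T33G (1.23, SE 0.50, adjusted p = 0.382), all in the other direction from the median. C32G,T33C and C32G passed without ATF7+/-_CD replicate 3, 2 of 17 sequences called in that fit.

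Whether the diet difference itself depended on genotype was tested as an interaction, the difference in ATF7+/- minus that in wild type. It was -0.51 (SE 0.34, adjusted p = 0.625) for the unedited 33 nt member, -0.94 (SE 0.45, adjusted p = 0.513) for 34 nt, -0.88 (SE 0.52, adjusted p = 0.585) for 35 nt and -0.22 (SE 0.72, adjusted p = 0.922) for 36 nt. With each library left out in turn the 36 nt value ranged from -1.11 to 0.22, and it was positive without WT_CD replicate 1, WT_LPD replicate 1 or ATF7+/-_CD replicate 3. By edgeR 0 members passed, as did 0% of the table, and 6 members had an unadjusted p under 0.05, where 9.83% of the table did. DESeq2 called 0 members of 3 sequences, and limma 0 of 0. The median of the members was -0.57 against 0.16 for the table. The smallest adjusted p was 0.468, shared by 33 nt G6C (-1.28, SE 0.50), C12T (-0.91, SE 0.36) and T1G (-1.14, SE 0.47). A smaller diet difference in ATF7+/- than in wild type was therefore not shown by this test. Without WT_CD replicate 3 the 34 nt G6A member passed (-1.77), 1 of 39 sequences called in that fit.

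Where the fragments ended was tested separately from how many there were. For each library the unedited reads that end past base 33, within the anticodon, were divided by those that end at base 33, and the log2 of this ratio was compared between groups. Of the unedited reads ending at base 33 or later, 16.2, 22.0 and 28.2% ended past base 33 in WT_CD and 28.9, 27.4 and 26.1% in WT_LPD. The share was 20.5, 24.4 and 27.9% in ATF7+/-_CD and 21.5, 26.5 and 24.6% in ATF7+/-_LPD. The groups overlapped in each of these diet pairs, and the control replicates were more spread than the low protein ones.

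In 6 two-sided exact permutation tests over libraries, adjusted over the 6 by Benjamini-Hochberg, none passed. The log2 ratio differed between the diets by 0.45 in wild type (exact permutation p = 0.3, adjusted 0.6) and by 0.00 in ATF7+/- (exact permutation p = 1, adjusted 1). It differed between the genotypes by 0.20 on control diet (exact permutation p = 0.7, adjusted 1) and by -0.25 on low protein diet (exact permutation p = 0.2, adjusted 0.6). Over both genotypes the diets differed by 0.23 (exact permutation p = 0.28, adjusted 0.6), and over both diets the genotypes by -0.03 (exact permutation p = 0.9, adjusted 1). With 3 against 3 libraries the smallest possible p is 0.1, and in the tests over both strata it is 0.005. A shift of the ends from base 33 to later bases was thus not detected, and these data do not show that there was none.

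Last-base differences were also compared as shares. Members differing in their last base held 19.0, 17.3 and 14.8% of the member level in WT_CD, 15.3, 14.7 and 15.2% in WT_LPD, 15.0, 14.7 and 16.3% in ATF7+/-_CD and 16.7, 16.9 and 17.5% in ATF7+/-_LPD. The ATF7+/-_LPD libraries lay wholly above those of ATF7+/-_CD and of WT_LPD, and WT_CD overlapped with the other groups. The same held for C34T as a share of the unedited 34 nt level. That share was 25.1, 20.5 and 16.6% in WT_CD, 18.1, 17.4 and 17.1% in WT_LPD, 16.0, 16.0 and 19.6% in ATF7+/-_CD and 19.9, 21.2 and 22.1% in ATF7+/-_LPD. C36T, as a share of the unedited 36 nt level, had 7.08, 5.29 and 5.83% in WT_CD, 6.77, 5.68 and 5.53% in WT_LPD, 5.43, 5.41 and 5.23% in ATF7+/-_CD and 7.23, 9.21 and 8.52% in ATF7+/-_LPD. These shares were examined after the levels were known and are given as a description with no test.

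In wild type 5 members had a lower mean level on low protein diet, and none of them passed. They were the extended members b (-1.64, SE 0.76) and a (-1.22, SE 0.70), 34 nt T19C,C34T (-1.22, SE 0.59), 33 nt C32G,T33C (-0.78, SE 0.89) and 36 nt C32A,T33G (-0.03, SE 0.33). Both extended members end at base 31 of the tRNA, so they carry the 31 nt sequence with 2 bases before it and are 33 nt long without reaching base 33. Extended member b had 8.66, 5.50 and 6.30 RPM in WT_CD, 3.95, 1.04 and 1.74 RPM in WT_LPD, 9.85, 6.98 and 1.36 RPM in ATF7+/-_CD and 2.49, 0.582 and 3.70 RPM in ATF7+/-_LPD. Its wild-type groups did not overlap, but its levels rest on few reads. The 1.04 RPM in WT_LPD replicate 2 corresponds to 3 counts, as does the 1.36 RPM in ATF7+/-_CD replicate 3. The 34 nt T19C,C34T member had 21.6, 37.2 and 3.98 RPM in WT_CD and 10.1, 8.35 and 8.25 RPM in WT_LPD, and there the control libraries lay on both sides of the low protein ones. All 5 were also negative in ATF7+/-. Averaged over both genotypes extended member b had -1.56 (SE 0.51, adjusted p = 0.0602), and it passed as lower with DESeq2 (-1.55, adjusted p = 0.0205) and with the replicate block (-1.59, adjusted p = 0.0499).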

How the data were processed

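Small RNA of histone replacement-completed mouse sperm was measured in 12 libraries, 4 groups of 3. The deposited table holds, for each sequence, raw read counts and the RPM values that the authors computed by scaling to a library total. Those totals were recovered from the ratio of both. Reads were placed on mm10 per the submitters' processing notes, while aligner and counter were not given in the sources used here. Value columns left unused numbered 0. Family membership was found with edlib 1.3.9.post1 (Python 3.11.15). R ends at base 34, so the unedited 35 and 36 nt members were defined by the most abundant 36 nt sequence that begins with R, a choice made after the table was opened. The letters of the fragments are not reported here.

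Counts of all 2971 sequences were fitted with edgeR 4.0.16 quasi-likelihood (R 4.3.3) on 4 group means, taking library sizes from the authors' totals without added scaling. Sequences needed a mean of 1 RPM, which removed 0. Tests were two-sided, p-values were adjusted by Benjamini-Hochberg across the table, the threshold was 0.05, and the biological coefficient of variation was 0.326. The fit was tested on simulated counts. End ratios used exact permutation tests (scipy 1.17.1). Alternatives were DESeq2 1.42.0, limma 3.58.1 on log2(RPM + 1), TMM factors, a 10 RPM minimum, a replicate block, fits on the 6 libraries compared, and each library left out. Leaving out control-diet replicates 1 and 2 was added after seeing the data.

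The members and lists were chosen with earlier results of these data known. Named were F, R, the unedited 31 to 36 nt sequences and the 3 most abundant edited members of each length. Also named were the called members (at most 10 with the largest rise) and up to 3 by p-value where fewer were called. The unedited 30 nt sequence and members whose direction or share stood out were named once their values had been seen. Same-numbered control-diet libraries of both genotypes deviated together for replicates 1 and 3, with r across sequences of 0.547 and 0.522. The best r with a differently numbered library was 0.227 and -0.278 there. For replicate 2 the same-numbered r was 0.143 and the best differently numbered one 0.195, so no pairing was seen for that number. These correlations are the only basis for a pairing, and the labels do not state it. Reads carry no molecular identifiers that are used here, so floors cover counting error only.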

Additional observations from a re-analysis of the deposited data

How the results depend on the processing

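Members called in wild type by diet (5) numbered 40 with DESeq2, 0 with limma, 0 with the 10 RPM minimum, 1 with the replicate block (the shortened member), 0 in the fit on the 6 libraries compared with or without that block, and 0 when replicates 1 and 2 of both control-diet groups were left out. With TMM factors they numbered 6 of 77 called sequences. Over both genotypes (17) they numbered 40 with DESeq2, 0 with limma and 11 with the 10 RPM minimum. They numbered 19 of 367 called sequences with TMM and 16 of 356 with the replicate block (15 higher and extended member b lower). In ATF7+/- (0) the fit on 6 libraries with replicate block called 1 member (36 nt C36T) of 260 called sequences. Between genotypes on low protein diet (0), DESeq2 called 1 and the fit on 6 libraries 21. In the whole table the diet contrasts had 327 calls in wild type, 45 in ATF7+/- and 530 over both genotypes with DESeq2. With limma each had 0.

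Leaving out each library in turn gave 0 to 45 members for diet in wild type, 0 to 52 for diet over both genotypes, 0 to 1 for genotype on control diet, 0 to 2 for genotype over both diets and 0 to 1 for the interaction. It gave 0 throughout for diet in ATF7+/- and for genotype on low protein diet. For the end ratio the range was 0.19 to 0.70 for diet in wild type, -0.15 to 0.14 for diet in ATF7+/-, -0.06 to 0.45 and -0.34 to -0.14 for genotype on control and low protein diet, 0.10 to 0.35 for diet and -0.16 to 0.10 for genotype over both strata. No end ratio test passed under any alternative run. Tests within a single genotype or diet could not pass in any setting, because their smallest possible p is at least 0.1. The cause of these changes was not tested.

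On control diet 0 members differed between the genotypes with and without the replicate block. Same-numbered libraries of the other pairs of groups did not all deviate together, with r of -0.299, -0.108 and -0.233 for diet in wild type, 0.414, -0.187 and -0.0494 for diet in ATF7+/- and -0.403, -0.0744 and 0.0617 for genotype on low protein diet. Of 922 values of named single members under the alternatives, 10 changed sign, all of them unedited members that did not pass: 7 for genotype on control diet and 3 for the interaction at 36 nt. Of the 402 that belong to called members, 402 kept their sign and 248 no longer passed. With TMM factors or DESeq2's size factors the median of all sequences for genotype on low protein diet was 0.03 or 0.01 in place of 0.11. A member at 3.28 RPM rests on few reads in the libraries with the lowest totals, so differences among the 40 members under 10 RPM were the least precise.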
